A study of Mus musculus with 24 samples.

Results

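Synaptic vesicle and transmitter release genes were examined as a set of 34 named mouse genes, taken from a table of 30153 genes by matching each row's Ensembl identifier to its symbol. All 34 were found. The set was named for its function, with earlier results of these data known, so that its presence in some libraries and not in others is a description. The series measured polyadenylated RNA in 24 libraries in 6 groups of 4, each labelled as kidney tissue of C57/BL6 mice, with 4 animals per group per the design text. The groups were Hap-I aged mice, Hap-I adults, Hap-I aged mice on western diet, Hap-I adults on western diet, Hap-II adults on western diet, and C57 adults. Hap-I and Hap-II name haplotype I and haplotype II in the labels, and the series title speaks of mice that overexpress the human angiotensin receptor type 1. The labels give no exact age, sex, promoter, founder number or batch. No diet is named for Hap-I aged mice, Hap-I adults and C57 adults, and they are described here as being without western diet. The comparisons asked how the set differed with age in the libraries where it was abundant, and which of its genes were still measured in kidney.

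A neuron releases transmitter when a filled vesicle docks at the active zone, is primed, and fuses with the plasma membrane after calcium enters. Fusion is driven by SNARE proteins of the vesicle (synaptobrevin) and of the plasma membrane (syntaxin and SNAP-25), with synaptotagmin as the calcium sensor. NSF and its SNAP adaptors then take the SNARE complex apart, dynamin and its partners recover the membrane, and carriers in the vesicle membrane load it again with glutamate or GABA. Kidney epithelium uses related proteins of the same families for its own membrane traffic, and the kidney also receives sympathetic nerve fibres, whose cell bodies lie outside the organ.

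Many genes of this kind are known to be held silent outside neurons, and promoter windows were read for the 3 members in which a searched motif was found letter for letter. The windows run from 250 bases before to 50 bases after the annotated start, are taken from RefSeq on GRCm38.p6, and were present for 31 of the 34 genes (not for Snap25, Vamp2 and Syngr3). The core of RE1, the site bound by the repressor REST, was searched as AGCACC followed after 2 bases of any kind by GGACAG, and the cyclic AMP response element as TGACGTCA, both on either strand. No window held both as exact strings. Capitals mark the match in each window.
Gad2 promoter window (GRCm38.p6, chr2:22622077-22622376, plus strand): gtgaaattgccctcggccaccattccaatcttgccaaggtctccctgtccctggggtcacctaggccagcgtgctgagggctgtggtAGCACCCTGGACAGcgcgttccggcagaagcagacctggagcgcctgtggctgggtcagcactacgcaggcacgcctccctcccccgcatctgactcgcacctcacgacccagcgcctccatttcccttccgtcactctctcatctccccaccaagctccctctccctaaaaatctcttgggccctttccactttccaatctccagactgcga
Syn1 promoter window (GRCm38.p6, chrX:20920869-20921168, minus strand): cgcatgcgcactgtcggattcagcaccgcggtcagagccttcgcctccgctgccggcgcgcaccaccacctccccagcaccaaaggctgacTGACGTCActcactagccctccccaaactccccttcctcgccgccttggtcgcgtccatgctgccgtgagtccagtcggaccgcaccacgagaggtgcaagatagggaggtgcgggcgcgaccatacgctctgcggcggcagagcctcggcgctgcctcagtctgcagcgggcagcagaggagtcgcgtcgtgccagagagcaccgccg
Sh3gl2 promoter window (GRCm38.p6, chr4:85205206-85205505, plus strand): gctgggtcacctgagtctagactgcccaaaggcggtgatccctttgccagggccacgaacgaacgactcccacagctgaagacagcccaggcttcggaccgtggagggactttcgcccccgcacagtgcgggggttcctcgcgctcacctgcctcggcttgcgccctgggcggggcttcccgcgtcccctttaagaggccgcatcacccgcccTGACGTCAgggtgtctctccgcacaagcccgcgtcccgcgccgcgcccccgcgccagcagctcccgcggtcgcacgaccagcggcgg
Of the 31 windows, 1 held the RE1 core (Gad2, 163 bases before the RefSeq start). The cyclic AMP response element was held by 2 (Syn1, 159 bases before the RefSeq start, and Sh3gl2, 37 bases before it). In GENCODE M21, used here to match symbols, Sh3gl2 begins at 85205126, ahead of its window, so its match lies inside that annotated gene. Among all 27025 genes with a window, 0.0592% held the first and 2.03% the second. With 1 letter of the RE1 core allowed to differ, the windows of Syn1 and Slc17a6 matched as well as that of Gad2, 3 of 31 members beside 0.411% of all genes. A match is a string of letters and not a measured binding site. Of these 3 genes Sh3gl2 stayed measurable in kidney, whereas Gad2 and Syn1 were near 0 there. Windows of the 11 kidney-measured members that have one held a median of 22 CpG dinucleotides, those of the 20 other members 18.5, and those of all genes 8.

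In 8 libraries the transcripts went against the labelled tissue. In the 8 libraries labelled Hap-I aged and Hap-I adult without western diet, 14 nephron markers summed to between 16.5 and 118.6 TPM (aged) and between 3.91 and 13.1 TPM (adult), against 8299 to 81310 TPM in the other 16 libraries. All 14 markers were lower in the 8 without overlap. TPM are transcript abundances scaled to a fixed total per library and divided by transcript length, so that levels of different genes can be set side by side. In the same 8 libraries all 15 markers of cortex and hippocampus averaged at least 1 TPM in both groups. Of 12 cerebellum markers 8 did so in each group, though Gabra6, the defining receptor subunit of cerebellar granule cells, was at most 0.170 TPM. Of 12 brainstem and spinal cord markers 2 did so in each group, while Hoxb5 and Hoxb8, which mark hindbrain and cord, were at most 0.0720 TPM. They are called the 8 brain-like libraries below, and the others the 16 kidney libraries. Fewer cells of a type and less RNA per cell cannot be told apart in such bulk samples.

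Some of the 8 stood apart from each other. Adult library 4 held striatal transcripts, with Drd2, a dopamine receptor, at 2.26, 2.49, 4.00 and 2.32 TPM in the aged libraries and 1.96, 2.20, 2.33 and 50.7 TPM in the adult ones, and 10 striatum markers summing to 1667 TPM there against 159.2 to 265.5 TPM in the other 7. Adult library 2 held choroid plexus transcripts, with Ttr, the thyroid hormone carrier transthyretin, at 31.4, 86.8, 74.5 and 912 TPM in the aged libraries and 412, 5403, 14.5 and 13.9 TPM in the adult ones. Transcripts of the mitochondrial genome took between 11.3 and 22.5% of TPM in the aged and between 13.2 and 26.4% in the adult libraries. Adult library 3 had the lowest value of the 8 for 15 of the 34 members and adult library 1 for 12, so results on age are given with and without single libraries.

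All 34 genes were at 1 TPM or more in each of the 8 brain-like libraries, and 24 averaged 100 TPM or more. Their summed level was between 11890 and 13448 TPM in the aged and between 10993 and 12030 TPM in the adult libraries. Among the core fusion genes, Snap25, the plasma membrane SNARE (ENSMUSG00000027273, GRCm38 chromosome 2, 136713453 to 136782428), had 2042, 2269, 2263 and 2073 TPM in the aged libraries and 1792, 2194, 2258 and 1662 TPM in the adult ones. It was the most abundant gene of the set, and both groups overlapped. Vamp2, synaptobrevin 2 of the vesicle, had 949, 938, 992 and 1053 TPM in the aged libraries and 1027, 989.6, 936 and 1097 TPM in the adult ones. The 8 values of Vamp2 were the closest together of the set, with the highest 1.17 times the lowest. Syt1, the calcium sensor synaptotagmin 1 (ENSMUSG00000035864, GRCm38 chromosome 10, 108497650 to 109010982), had 754, 736, 794 and 760.5 TPM in the aged libraries and 508, 709, 619.9 and 616 TPM in the adult ones. Each aged value of Syt1 lay above each adult value.

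Stx1a, the neuronal syntaxin that pairs with both other SNARE proteins, was lower and less even than its partners. It had 59.6, 64.3, 126 and 109 TPM in the aged libraries and 113, 69.3, 115 and 120.4 TPM in the adult ones. Aged libraries 1 and 2 and adult library 2 were low, at 69.3 TPM or less, and the other 5 were at 109 TPM or more. Vamp1, the second synaptobrevin, averaged 97.0 ± 19.4 TPM in the aged libraries and 84.8 ± 8.80 TPM in the adult ones (SD, n = 4 each).

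Vesicle membrane proteins were led by Syp, synaptophysin, the usual stain for synapses, with 1034 ± 59.7 TPM in the aged libraries and 1045 ± 129 TPM in the adult ones (SD, n = 4 each here and below). Sv2a and Sv2b, transporter-like vesicle glycoproteins of which the first binds the drug levetiracetam, stood near each other, Sv2a at 215 ± 26.4 TPM in the aged libraries and 189 ± 14.8 TPM in the adult ones and Sv2b at 209 ± 19.5 TPM in the aged libraries and 203 ± 26.4 TPM in the adult ones. Of the synaptogyrins, vesicle membrane proteins related to synaptophysin, Syngr1 averaged 265 ± 35.4 TPM in the aged libraries and 254 ± 22.4 TPM in the adult ones and Syngr3 132 ± 20.3 TPM in the aged libraries and 140.4 ± 31.8 TPM in the adult ones. The synapsins tether vesicles to the cytoskeleton and to each other. Syn1 averaged 348 ± 17.1 TPM in the aged libraries and 325 ± 26.3 TPM in the adult ones, and Syn2 107 ± 12.6 TPM in the aged libraries and 119.6 ± 21.7 TPM in the adult ones.

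Genes of docking and priming split into abundant small cofactors and scarcer large scaffolds. The complexins, short proteins that clamp and assist the SNARE complex, were high, with Cplx2 at 654 ± 31.4 TPM in the aged libraries and 581 ± 59.5 TPM in the adult ones and Cplx1 at 473 ± 65.6 TPM in the aged libraries and 506 ± 53.9 TPM in the adult ones. Rab3a, the vesicle GTPase that binds the active zone, averaged 492 ± 68.1 TPM in the aged libraries and 518 ± 114 TPM in the adult ones. Unc13a, which primes vesicles by opening syntaxin, averaged 103 ± 8.76 TPM in the aged libraries and 75.8 ± 9.85 TPM in the adult ones. The active zone scaffolds Bassoon, Piccolo and RIM1 were at 79.1 ± 6.63 TPM in the aged libraries and 75.7 ± 11.3 TPM in the adult ones for Bsn, 56.9 ± 3.09 TPM in the aged libraries and 42.2 ± 9.30 TPM in the adult ones for Pclo, and 51.0 ± 5.75 TPM in the aged libraries and 43.6 ± 10.4 TPM in the adult ones for Rims1.

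For recycling, Nsf, the ATPase that separates used SNARE complexes, averaged 739 ± 45.8 TPM in the aged libraries and 631 ± 88.9 TPM in the adult ones, and Napb, its brain-enriched adaptor beta-SNAP, 298 ± 12.2 TPM in the aged libraries and 257 ± 30.8 TPM in the adult ones. Dnm1, the dynamin that cuts endocytic necks in nerve terminals, was at 336 ± 88.7 TPM in the aged libraries and 328 ± 89.4 TPM in the adult ones. Its partners were Sh3gl2, endophilin A1, at 241 ± 9.98 TPM in the aged libraries and 221 ± 33.0 TPM in the adult ones, Synj1, the lipid phosphatase synaptojanin that strips clathrin coats, at 209 ± 15.96 TPM in the aged libraries and 174 ± 22.1 TPM in the adult ones, and Amph, amphiphysin, at 46.8 ± 1.95 TPM in the aged libraries and 42.4 ± 6.18 TPM in the adult ones. The next 4 members are not part of the fusion machine itself. Vsnl1, a neuronal calcium sensor, averaged 435 ± 48.1 TPM in the aged libraries and 348 ± 40.7 TPM in the adult ones, Nrsn1, a protein of small vesicles in neurites, 301 ± 15.2 TPM in the aged libraries and 315 ± 43.3 TPM in the adult ones, Sncb, beta-synuclein, 353 ± 93.8 TPM in the aged libraries and 362 ± 75.5 TPM in the adult ones, and Snph, syntaphilin, which anchors axonal mitochondria, 174 ± 16.1 TPM in the aged libraries and 172 ± 14.9 TPM in the adult ones.

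**Figure D1:**
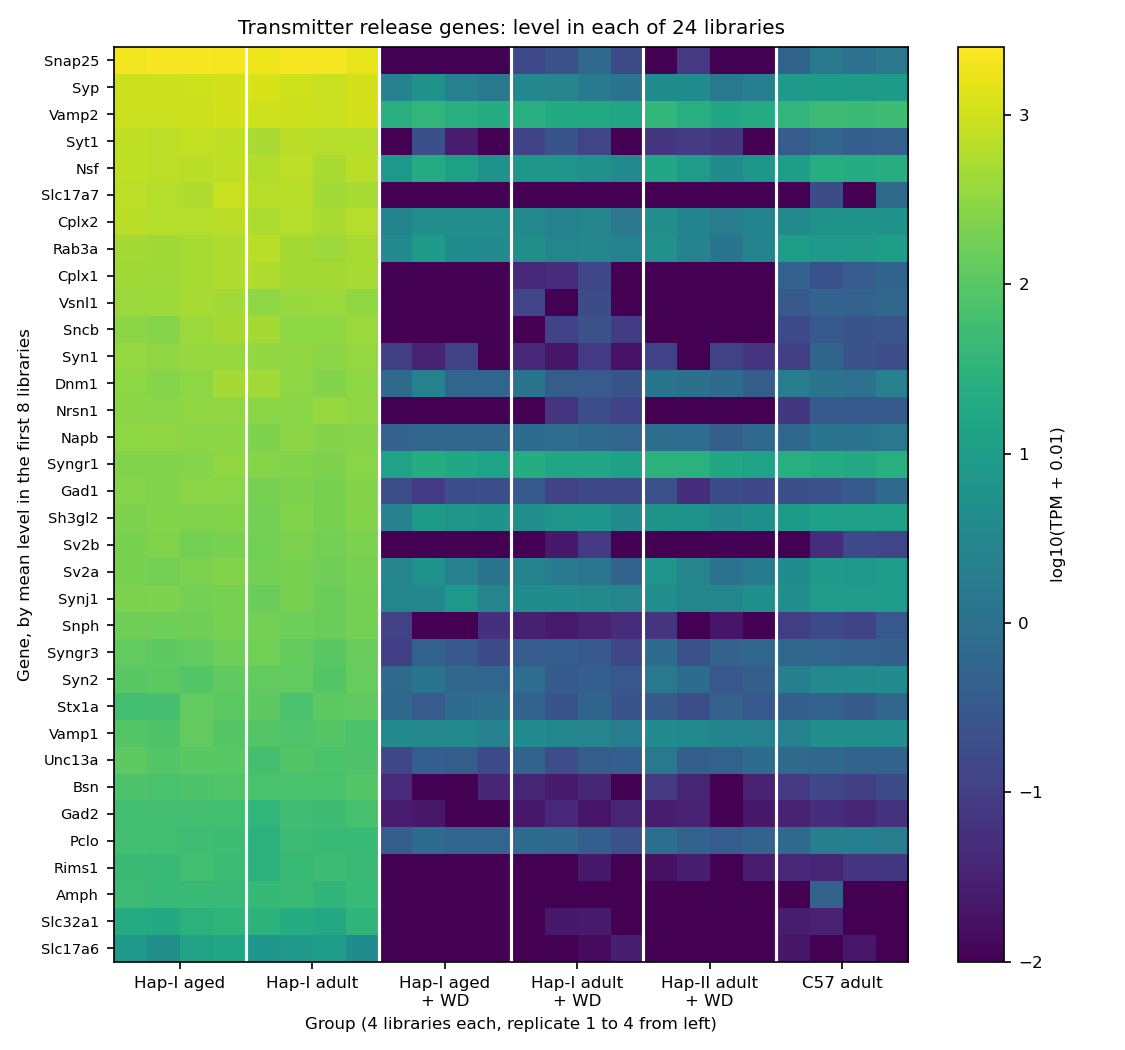
Level of each of the 34 genes in each of 24 libraries, as log10 of TPM plus 0.01 (colour), with genes in order of their mean in the first 8 libraries and libraries in 6 groups of 4. The 8 libraries labelled Hap-I aged and Hap-I adult are high for every gene, and 12 genes, among them Vamp2, Syngr1, Nsf and Syp, stay visible in the 16 libraries to their right.

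Carriers and enzymes of transmitter differ between kinds of neuron. Slc17a7, the vesicular glutamate carrier VGLUT1 of cortex and hippocampus (ENSMUSG00000070570, GRCm38 chromosome 7, 45163949 to 45176142), had 723, 633, 558 and 866 TPM in the aged libraries and 675, 664, 441 and 499 TPM in the adult ones. The aged and adult ranges overlapped, and aged library 4 was the highest. Slc17a6, the carrier VGLUT2 that is typical of thalamus and brainstem, had 8.25, 4.73, 13.0 and 14.9 TPM in the aged libraries and 7.02, 8.33, 10.1 and 4.19 TPM in the adult ones, the lowest level of the 34 and the widest spread, with the highest value 3.55 times the lowest. Slc17a7 made up between 97.7 and 99.3% of the 2 carriers' sum in the 8 libraries.

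Slc32a1, the vesicular carrier of GABA and glycine, had 20.6, 19.8, 28.8 and 33.4 TPM in the aged libraries and 30.4, 21.6, 18.1 and 33.7 TPM in the adult ones. Its highest values were in adult library 4 and aged library 4, and the groups overlapped. Gad1, which makes most of the brain's GABA, had 259, 235, 292 and 277 TPM in the aged libraries and 192, 231, 211 and 254 TPM in the adult ones. Gad2, the GABA-synthesizing enzyme of nerve terminals, had 58.5, 60.5, 62.0 and 57.1 TPM in the aged libraries and 35.3, 56.3, 51.8 and 67.0 TPM in the adult ones. Gad1 exceeded Gad2 by 3.79 to 5.46 times in every library. The ratio of Slc17a7 to Slc32a1 was between 19.4 and 35.0 in the aged and between 14.8 and 30.7 in the adult libraries, lowest in adult library 4, the one with the striatal transcripts. The part of striatal tissue in the values of this library was not tested. Gad1 shares 3.97% of its transcript words of 31 bases with other genes, most of them with the pseudogene Gad1-ps, and no other member shares as many.

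Against the 16 kidney libraries all 34 genes were higher in the 8 brain-like ones without overlap, which among all 15200 genes compared held for 41.3% (11.7% were lower without overlap). This difference in tissue content was known when the set was named and is not a finding of its own. The ratios of the means differed widely within the set. The smallest was 13.6 for Syngr1 (ENSMUSG00000022415, GRCm38 chromosome 15, 80091334 to 80119501), with a mean of 259.5 TPM in the 8 and 19.1 TPM in the 16, and next came Vamp1 at 26.9, Vamp2 and Sh3gl2 at 33.6 and Synj1 at 38.5. At the other end were Slc17a7 with a ratio of 11600, Sv2b with 8330, Slc32a1 with 6330 and Snap25 with 5760. In these the mean of the 16 rests on few libraries, since Slc17a7 was listed at 0 in 14 of the 16, Slc32a1 in 12, Sv2b in 11 and Snap25 in 7.

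Within gene families the members differed in where they were higher. In the SNAP-25 family, Snap25 averaged 2069 TPM in the 8 and 0.359 TPM in the 16, Snap29 averaged 19.0 and 18.1 TPM with overlapping values, and Snap23, the epithelial paralog, averaged 11.2 and 42.3 TPM and was lower in the 8 without overlap. Among the synaptobrevins, Vamp3 averaged 37.8 TPM in the 8 and 33.6 TPM in the 16, and Vamp8, which serves secretion outside neurons, 9.80 and 152.6 TPM, again lower without overlap. The syntaxins of general traffic, Stx3 and Stx4a, overlapped between the 8 (16.1 and 66.9 TPM) and the 16 (24.2 and 34.5 TPM). Napa, the general alpha-SNAP, averaged 185.8 TPM in the 8 and 43.4 TPM in the 16, a ratio of 4.28 against 351 for its paralog Napb. Dnm2, the dynamin found in every cell type, averaged 31.3 and 23.0 TPM with overlap, while Dnm1 averaged 332 and 1.01 TPM. Syngr2, the synaptogyrin of non-neuronal cells, averaged 9.91 TPM in the 8 and 50.6 TPM in the 16 and was lower without overlap.

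**Figure D2:**
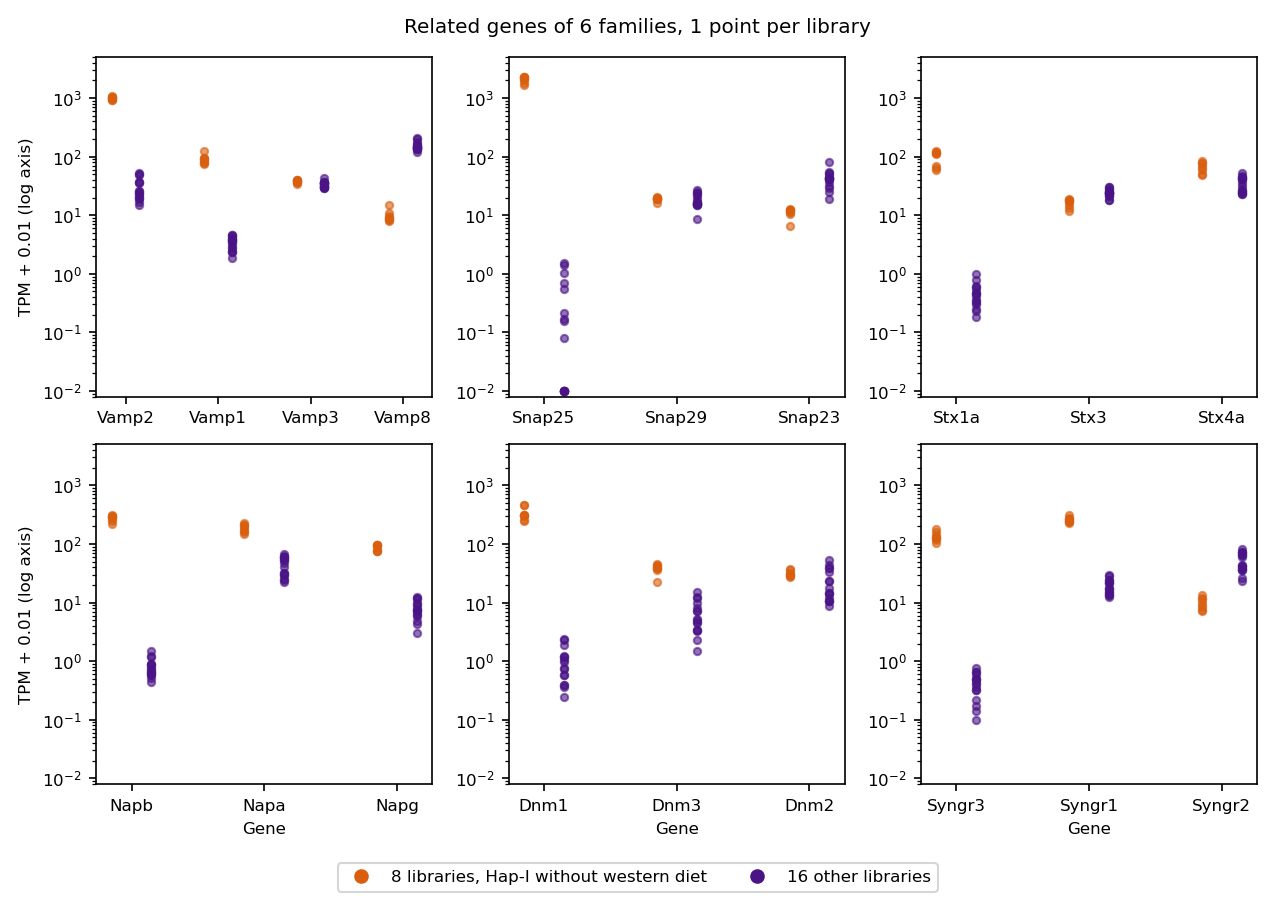
Related genes of 6 families, 1 point per library on a log axis of TPM plus 0.01, with the 8 brain-like libraries left of the 16 kidney libraries for each gene. Snap25, Stx1a, Napb, Dnm1 and Syngr3 lie far apart between the 2 kinds of library, Snap29, Vamp3 and Dnm2 overlap, and Vamp8, Snap23 and Syngr2 are lower in the 8.

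Of 50 further genes of the release machinery that reached 1 TPM in at least 4 of the 24 libraries, 39 were higher in the 8 without overlap and 3 lower (Vamp8, Snap23 and Syngr2). All 23 such genes of the postsynaptic density and all 17 neuron markers outside the synapse were higher without overlap, and so were 12 of 13 subunits of the vesicle proton pump, which kidney also uses. In the pump the neuronal subunit Atp6v1g2 averaged 578.4 TPM in the 8 and 3.58 TPM in the 16, a ratio of 161, against 3.28 for the shared subunit Atp6v0c. Of 13497 genes at 1 TPM or more in at least 4 of the 8, 83.9% reached the same level in at least 4 of the 16, against 12 of the 34 members.

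With age, no gene of the set passed the test in the 8 brain-like libraries. The comparison of Hap-I aged with Hap-I adult libraries was fitted with limma on log2(TPM + 1) over these 8 alone, and a gene was called at a Benjamini-Hochberg adjusted p under 0.05 over all genes. None of the 34 was called, against 0.0296% of the 13497 genes tested (4 genes, all higher in aged). At an unadjusted p under 0.05 there were 6 members, all higher in aged, and 2081 genes in all. The members' changes ran from -0.26 (Stx1a) to 0.45 (Pclo) on the log2 scale, with 24 above 0 and 10 below and a median of 0.136, beside a median of 0.118 over all genes tested. Relative to that median 18 members lay above and 16 below. After median-of-ratios rescaling 16 of the 34 were above 0 (median -0.006) and after quantile normalization 20 (median 0.064), so that no direction is given for the set as a whole.

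The 95% intervals set bounds on what these 8 libraries could show. They lay within 1 log2 unit either way for 33 of the 34 genes and included 0 for 28, with outer bounds of -0.83 and 1.08. For the core fusion genes the estimates were 0.14 ± 0.14 for Snap25 (SE, limma adjusted p = 0.638), -0.04 ± 0.11 for Vamp2 (adjusted p = 0.880), 0.32 ± 0.12 for Syt1 (adjusted p = 0.259) and -0.26 ± 0.26 for Stx1a (adjusted p = 0.655). After median-of-ratios rescaling Snap25 was at -0.003. The transmitter genes had estimates of 0.29 ± 0.18 for Slc17a7, 0.36 ± 0.32 for Slc17a6, -0.01 ± 0.22 for Slc32a1, 0.26 ± 0.12 for Gad1 and 0.21 ± 0.17 for Gad2, with adjusted p between 0.320 and 0.992 in limma's test.

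The 6 genes with the smallest p were chosen after their values were seen. Unc13a had 112, 91.2, 104 and 102 TPM in the aged libraries and 63.2, 87.2, 75.7 and 76.9 TPM in the adult ones, a log2 change of 0.44 ± 0.12 (limma adjusted p = 0.211). All 4 aged values lay above all 4 adult ones. Pclo had 60.1, 58.5, 56.1 and 53.0 TPM in the aged libraries and 28.8, 50.04, 43.5 and 46.4 TPM in the adult ones, also without overlap (log2 change 0.45 ± 0.16, limma adjusted p = 0.245). Syt1 was the third member whose aged and adult values did not overlap, and no member was lower in aged without overlap. Over all genes 10.5% were higher and 0.615% lower in aged without overlap, so 3 of 34 is near the background. Vsnl1, Synj1 and Gad1 followed, with log2 changes of 0.32 ± 0.12, 0.27 ± 0.12 and 0.26 ± 0.12 and limma adjusted p = 0.268, 0.309 and 0.320.

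**Figure D3:**
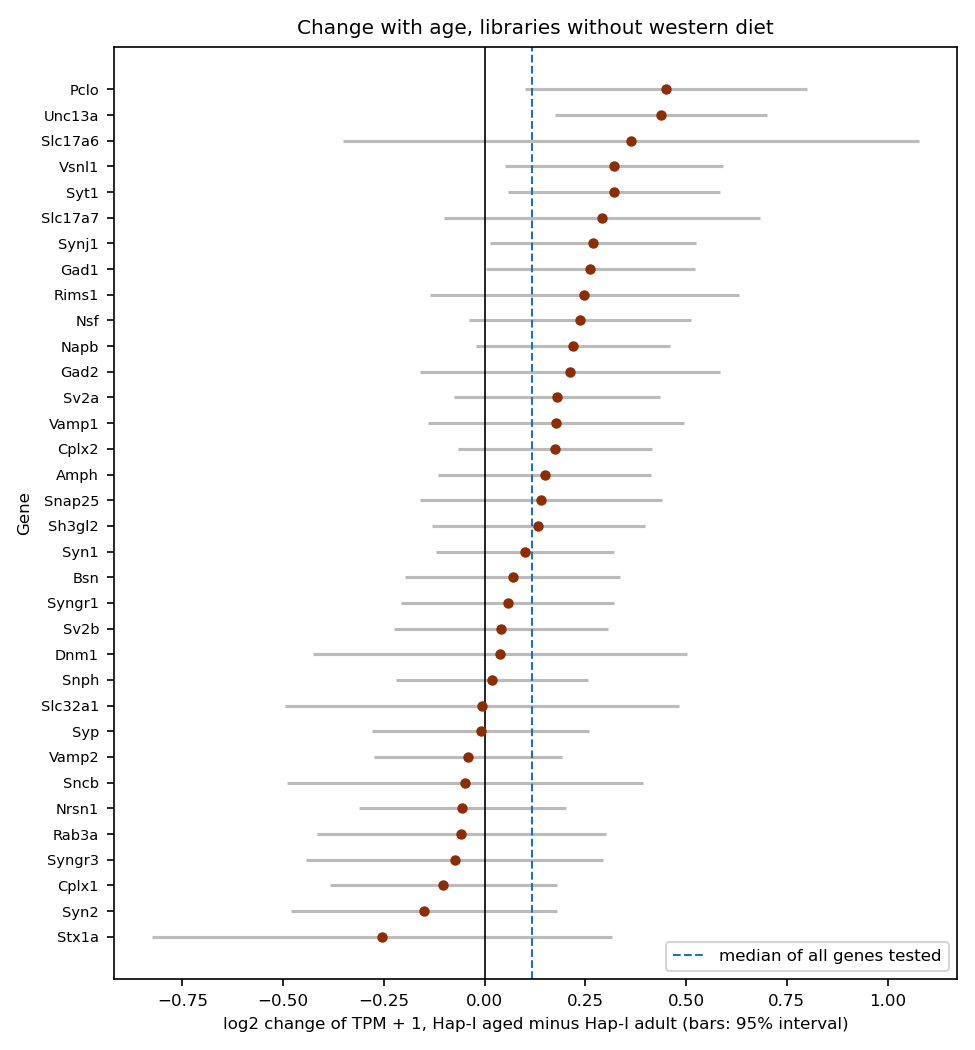
Log2 change of TPM plus 1 in Hap-I aged minus Hap-I adult libraries without western diet, 1 point per gene with its 95% interval from limma (4 libraries each). The points run from -0.26 for Stx1a to 0.45 for Pclo around the dashed median of all genes tested, and the intervals of 28 genes include 0.

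Single libraries moved these estimates without bringing a call. Leaving out each of the 8 in turn kept the number of called members at 0, with 3 to 7 members at an unadjusted p under 0.05, 21 to 28 of the 34 above 0 and medians between 0.077 and 0.171. Without adult library 4, which held striatal transcripts, the median was 0.148, and without adult library 2, which held choroid plexus transcripts, 0.171. The members' age changes rose with the length of the longest transcript (Spearman's rho 0.545 over 34 genes and 0.335 over 13414 genes). In single libraries the members' deviation from the mean of the 8 rose with length in aged libraries 1 and 2 (rho 0.587 and 0.515, beside 0.297 and 0.28 over all genes) and fell with it in adult library 1 (rho -0.6, beside -0.513 over all genes). In the other 5 rho over the members lay between -0.297 and 0.287. These correlations are across genes, which share the same 8 libraries. Pclo, with the longest transcript of the set, and Unc13a headed the changes. Without adult library 1 the median was 0.091 and the range -0.21 to 0.38. The part of these 3 libraries in the order of the genes was otherwise not tested.

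Other synaptic lists gave the same count of calls, and their genes were picked with earlier results of these data known. Of 50 further release genes tested, 0 were called by limma (7 at an unadjusted p under 0.05), with a median change of 0.143. Among these genes Syt11, a synaptotagmin, was at 0.16 (limma adjusted p = 0.501). Of 23 genes of the postsynaptic density 0 were called, but 22 were above 0, 13 had an unadjusted p under 0.05 and the median was 0.378. Camk2a, the main kinase of the postsynaptic side, had 2064, 1858, 1571 and 1803 TPM in the aged libraries and 1302, 1480, 1462 and 1350 TPM in the adult ones (log2 change 0.38, limma adjusted p = 0.234), without overlap. Of 10 oligodendrocyte markers 0 were called, all 10 were above 0 and the median was 0.548, with summed levels of 4686 to 5922 TPM in aged and 2992 to 4080 TPM in adult libraries. The 17 neuron markers outside the synapse had a median of 0.042 (3 at an unadjusted p under 0.05), and the 9 astrocyte markers -0.078 (2). The part of such cell makeup in the members' changes was not tested.

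In kidney, 12 of the 34 genes remained measurable, taken as 1 TPM or more in at least 4 of the 16 libraries. They were Vamp2, Syngr1, Nsf, Sh3gl2, Rab3a, Synj1, Syp, Cplx2, Sv2a, Vamp1, Syn2 and Dnm1, in order of their mean. At 0.5 TPM 18 genes would count, and at 5 TPM 8. Of the 12, 9 were at 1 TPM or more in all 16 libraries, Sv2a in 15, Dnm1 in 7 and Syn2 in 6. Another 4 reached 1 TPM in 1 to 3 libraries (Snap25, Pclo and Napb in 3 each, Unc13a in 1), and 18 reached it in none. In 7 of the 12 (Vamp1, Syn2, Rab3a, Nsf, Syngr1, Dnm1 and Sh3gl2) the gene overlaps another annotated gene, among them Rpl3 at Syngr1 and Timp4 at Syn2, and the sources used here do not say whether counting used the strand, so that low values of these genes are uncertain. The 12 share at most 1.61% of their transcript words with other genes.

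The 3 most abundant were genes of fusion, membrane and SNARE recycling. Vamp2 had 24.4, 35.3, 25.4 and 22.1 TPM in Hap-I aged mice on western diet, 25.9, 19.7, 19.0 and 15.2 TPM in Hap-I adults on it, 37.2, 24.3, 16.9 and 20.7 TPM in Hap-II adults on it and 36.5, 50.2, 48.8 and 53.5 TPM in C57 adults. Syngr1 had 13.2, 22.1, 16.7 and 13.9 TPM in Hap-I aged mice on western diet, 21.6, 14.9, 14.9 and 12.5 TPM in Hap-I adults on it, 29.7, 28.1, 16.9 and 13.4 TPM in Hap-II adults on it and 24.0, 21.3, 17.8 and 24.6 TPM in C57 adults. Its groups overlapped throughout. Nsf had 7.67, 20.7, 11.8 and 5.62 TPM in Hap-I aged mice on western diet, 7.28, 6.68, 5.47 and 3.56 TPM in Hap-I adults on it, 17.3, 9.65, 4.12 and 6.93 TPM in Hap-II adults on it and 10.9, 23.0, 22.1 and 23.4 TPM in C57 adults. For Nsf, C57 library 1 lay within the range of the mice on the diet, and the other 3 C57 libraries were the highest of the 16.

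Of the endocytic genes, Sh3gl2 had 2.47, 8.77, 6.43 and 6.14 TPM (Hap-I aged on the diet), 4.56, 6.63, 6.96 and 3.79 TPM (Hap-I adult on the diet), 6.29, 5.76, 3.86 and 5.10 TPM (Hap-II adult on the diet) and 8.87, 11.3, 11.3 and 11.7 TPM (C57 adult), with every C57 value above every value on the diet. Synj1 had 2.96, 3.29, 7.45 and 2.84 TPM (Hap-I aged on the diet), 4.22, 3.94, 3.76 and 2.86 TPM (Hap-I adult on the diet), 4.38, 3.06, 3.14 and 5.09 TPM (Hap-II adult on the diet) and 4.32, 9.29, 9.50 and 9.53 TPM (C57 adult). Dnm1 had 0.721, 2.38, 0.576 and 0.578 TPM (Hap-I aged on the diet), 1.19, 0.383, 0.346 and 0.239 TPM (Hap-I adult on the diet), 1.22, 0.972, 0.761 and 0.387 TPM (Hap-II adult on the diet) and 1.86, 1.16, 1.03 and 2.29 TPM (C57 adult). C57 values of Synj1 and Dnm1 overlapped with those of mice on the diet, through C57 library 1 for Synj1.

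Of the vesicle proteins, Syp had 2.42, 5.85, 2.38 and 1.52 TPM (Hap-I aged on the diet), 3.28, 2.88, 1.79 and 1.16 TPM (Hap-I adult on the diet), 4.30, 4.16, 1.505 and 2.15 TPM (Hap-II adult on the diet) and 8.26, 8.86, 8.62 and 8.60 TPM (C57 adult). All 4 C57 values of Syp lay close together and above the other 12. Sv2a had 2.83, 5.73, 2.20 and 1.16 TPM (Hap-I aged on the diet), 2.76, 1.70, 1.33 and 0.518 TPM (Hap-I adult on the diet), 6.44, 2.83, 1.06 and 1.64 TPM (Hap-II adult on the diet) and 4.19, 8.27, 7.69 and 9.54 TPM (C57 adult). Syn2 had 0.720, 1.22, 0.587 and 0.559 TPM (Hap-I aged on the diet), 0.854, 0.332, 0.404 and 0.282 TPM (Hap-I adult on the diet), 1.47, 0.783, 0.289 and 0.412 TPM (Hap-II adult on the diet) and 1.99, 3.43, 3.57 and 4.03 TPM (C57 adult). Syn2 was under 1 TPM in 10 of 12 libraries on the diet and above it in each C57 library.

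The remaining 3 act in docking and fusion. Rab3a had 3.99, 8.60, 4.19 and 4.10 TPM (Hap-I aged on the diet), 4.68, 3.00, 3.11 and 2.77 TPM (Hap-I adult on the diet), 5.50, 2.65, 1.23 and 2.69 TPM (Hap-II adult on the diet) and 10.6, 7.87, 7.78 and 10.3 TPM (C57 adult). Cplx2 had 2.67, 4.57, 4.35 and 4.48 TPM (Hap-I aged on the diet), 3.43, 2.40, 2.91 and 1.38 TPM (Hap-I adult on the diet), 4.71, 2.69, 1.94 and 2.79 TPM (Hap-II adult on the diet) and 3.69, 5.90, 6.00 and 6.04 TPM (C57 adult). Vamp1 had 3.73, 3.43, 3.70 and 2.43 TPM (Hap-I aged on the diet), 3.97, 3.23, 2.87 and 1.89 TPM (Hap-I adult on the diet), 4.08, 3.59, 2.70 and 2.35 TPM (Hap-II adult on the diet) and 2.35, 4.62, 4.68 and 4.41 TPM (C57 adult). Values of Vamp1 and Cplx2 in C57 library 1 were the lowest of that group and fell within the range of the mice on the diet. Rab3a in that library was the highest of all 16.

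**Figure D4:**
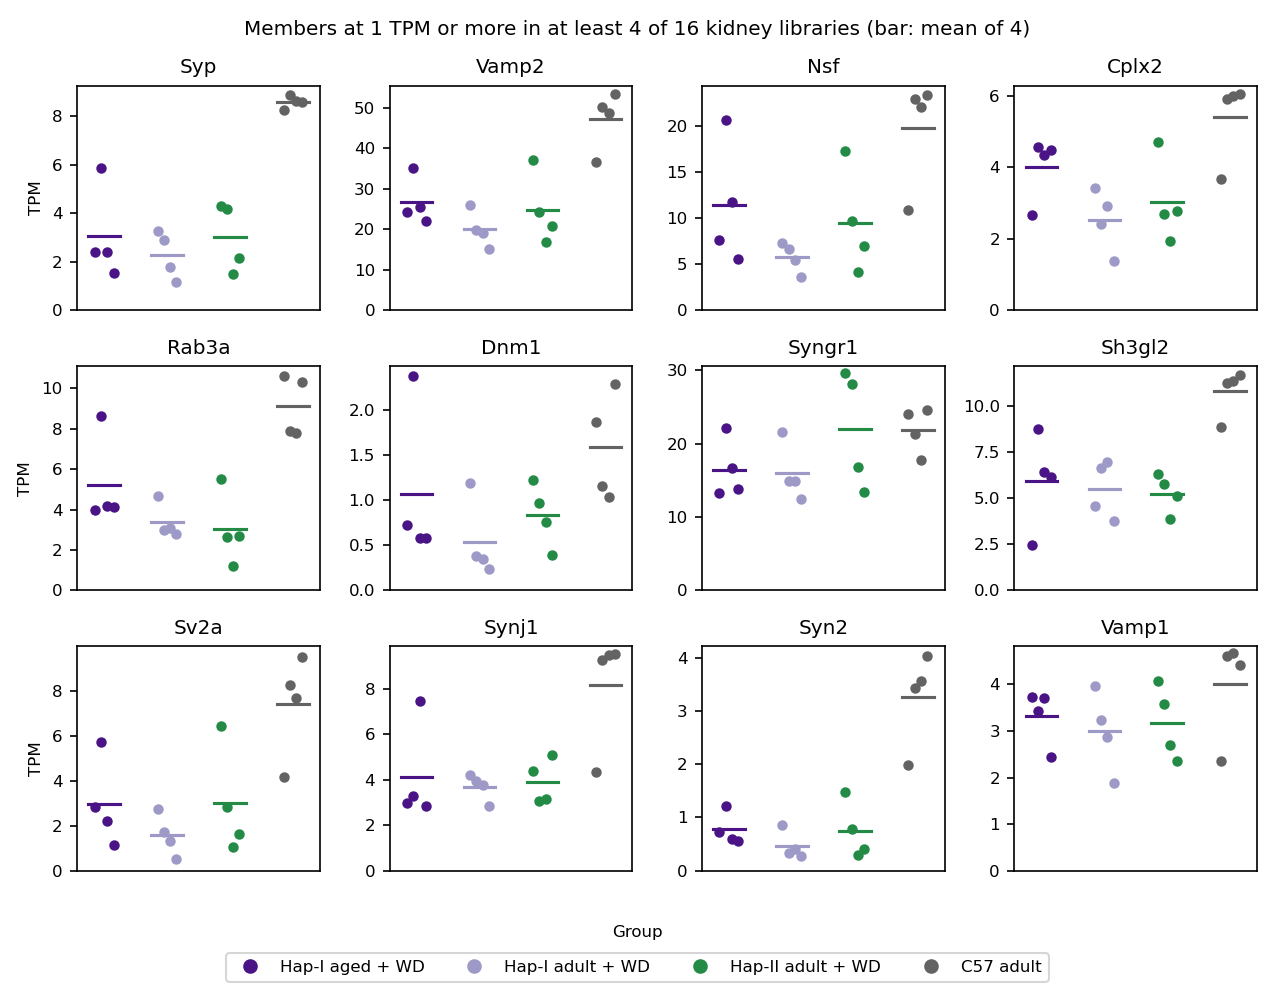
TPM of the 12 genes measurable in kidney, 1 point per library and a bar at the mean of 4, for Hap-I aged mice on western diet, Hap-I adults on it, Hap-II adults on it and C57 adults. All C57 points of Syp, Sh3gl2 and Syn2 lie above the others, and those of Syngr1 and Vamp1 overlap with them.

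Age and haplotype on western diet moved none of the 12 past the test. The 4 comparisons in kidney were fitted with limma over the 16 libraries and 12923 genes. For Hap-I aged against Hap-I adult mice on the diet, 0 of 12 were called against 0.031% of all genes (4 genes), and 0 members and 2080 genes had an unadjusted p under 0.05. All 12 estimates were above 0, between 0.04 and 0.77 log2 units, but the median of all genes was 0.318 and that of the members 0.326. After median-of-ratios rescaling 7 of the 12 were above 0 and 5 below. For Hap-I against Hap-II adults on the diet, 0 of 12 were called against 0.0774% of all genes (10 genes), and 0 members and 421 genes had an unadjusted p under 0.05. Estimates ran from -0.53 to 0.21, with a median of -0.239 beside -0.218 for all genes. The 95% intervals reached from -0.56 to 1.62 for age and from -1.39 to 0.84 for haplotype. The groups also differed in Y-linked transcripts, and the labels give no sex. The summed level of 4 Y-linked genes was at most 2.16 TPM in 5 of the 12 libraries on the diet and at least 13.2 TPM in the other 7, and the 5 were libraries 1 and 2 of Hap-I aged mice, library 1 of Hap-I adults and libraries 1 and 2 of Hap-II adults. Of the 12, only Sv2a and Syn2 followed this split without overlap. The share of all genes that did so was not counted, so the split is not read as a result about these 2 genes. Sv2a was between 2.76 and 6.44 TPM in the 5 and between 0.518 and 2.20 TPM in the 7, and Syn2 between 0.720 and 1.47 TPM in the 5 and between 0.282 and 0.587 TPM in the 7. With the Y-linked level (a sum under 5 TPM or not) as a term of the fit, a choice made after seeing the data, 0 members were called in either comparison, with a median of 0.195 for age (0.233 over all genes) and -0.111 for haplotype (-0.14 over all genes).

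Against C57 adults most of the 12 were lower in the mice on western diet, and so were most other genes. Syn2 and Dnm1 reached 1 TPM in only 2 and 3 of the 12 libraries on the diet and passed the filter through the 4 C57 libraries, where they are high, so that their difference from C57 is in part set by the filter. Without them, when genes had to reach 1 TPM in at least 4 of the 12 libraries on the diet (added after seeing the data), 8 of 10 were lower in Hap-I adults by limma's test, beside 58.8% of 12206 genes (61.2% called in all), and 8 of 10 were lower in Hap-II adults, beside 35.4% (38.2% called in all). With the filter over all 16 libraries, 10 of 12 were lower in Hap-I adults on the diet, beside 62.0% of all genes called, 59.7% lower and 2.28% higher. The median of all genes was -0.801 and that of the members, Syn2 and Dnm1 included, -1.065. The largest changes outside those 2 genes were those of Sv2a (-1.73 ± 0.41 log2 units, SE, limma adjusted p = 0.00321), Nsf (-1.61 ± 0.40, 0.00425) and Syp (-1.60 ± 0.32, 0.00159). Syn2 was at -1.52 ± 0.23, in part set by the filter. Rab3a, Vamp2, Synj1, Sh3gl2, Cplx2 and Dnm1 were lower with changes between -1.21 and -0.76. Syngr1 (-0.45 ± 0.26, adjusted p = 0.137) and Vamp1 (-0.33 ± 0.24, adjusted p = 0.236) were not called. Of the 12, 9, Syn2 among them, were lower without overlap, beside 55.3% of all genes.

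In Hap-II adults on the diet 9 of 12, Syn2 among them, were lower with the filter over all 16 libraries. Of all genes 39.7% were called (36.9% lower and 2.73% higher). The median was -0.593 for all genes and -0.936 for the members, Syn2 and Dnm1 included. As in Hap-I adults, the differences of Syn2 and Dnm1 from C57 are in part set by this filter. Rab3a (-1.43 ± 0.30 log2 units, SE, limma adjusted p = 0.00450), Syp (-1.32 ± 0.32, 0.00819) and Sv2a (-1.21 ± 0.41, 0.0309) led, and Syn2 was at -1.31 ± 0.23 (0.00194). Nsf, Vamp2, Sh3gl2, Synj1 and Cplx2 were lower with changes between -1.09 and -0.69. Dnm1, Vamp1 and Syngr1 were not called, at -0.49 ± 0.27, -0.25 ± 0.24 and -0.06 ± 0.26. Of the 12, 4, Syn2 among them, were lower without overlap, beside 26.7% of all genes. Both comparisons share the C57 libraries.

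These counts depended on how libraries were scaled to each other. Syn2 is kept in the lists that follow, though its difference from C57 is in part set by the filter. Median-of-ratios rescaling, which sets the bulk of genes level, left 4 lower (Nsf, Sv2a, Syn2 and Syp) and 2 higher (Vamp1 and Syngr1) in Hap-I adults, and 3 lower (Rab3a, Syn2 and Syp) and 1 higher (Syngr1) in Hap-II adults. Quantile normalization left 5 lower and 1 higher (Vamp1) in Hap-I adults and 4 lower and 1 higher (Syngr1) in Hap-II adults. Of the 10 genes that pass on the diet libraries alone, Syp was the one called lower in both comparisons under all 3 scalings. Without single libraries the Hap-II count fell to 4 for Hap-II library 3 and for C57 libraries 2, 3 and 4, each time Rab3a, Syn2, Syp and Vamp2. All 4 C57 libraries were low in Y-linked transcripts, with sums of 0.730 to 0.954 TPM, like 5 of the 12 on the diet. In those 5 Syp was between 2.42 and 5.85 TPM, against 8.26 to 8.86 TPM in C57 adults. With the Y-linked level as a term, 4 of 12 were lower in Hap-I adults (Syn2, Synj1, Syp and Vamp2) and 6 of 12 in Hap-II adults (the same 4 with Rab3a and Sh3gl2). Syp was then at -1.04 (limma adjusted p = 0.0235) in Hap-I adults and -0.95 (adjusted p = 0.0237) in Hap-II adults. The mitochondrial share of TPM was between 21.2 and 35.7% in the libraries on the diet and between 12.4 and 16.9% in those of C57 adults. Titles of the C57 libraries also carry another letter than those of the libraries on the diet. Transgene, diet, mitochondrial share and title letter cannot be told apart here.

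The 22 other members left only traces in kidney, and the sum of these traces was larger in C57 adults. Their summed level, which averaged 6805 TPM in the 8 brain-like libraries, was between 2.13 and 2.95 TPM in Hap-I aged mice on the diet, from 2.13 to 4.24 TPM in Hap-I adults on it, between 2.44 and 4.90 TPM in Hap-II adults on it, and between 5.54 and 10.7 TPM in C57 adults. Every C57 value lay above the other 12. Between 12 and 14 of the 22 genes were listed at 0 in each library of Hap-I aged mice on the diet, 2 to 9 in those of Hap-I adults on it, 10 to 13 in those of Hap-II adults on it and 1 to 3 in those of C57 adults. Libraries also differed in how many genes of the whole series were above 0, from 15975 to 18395 on the diet and from 17990 to 18449 in C57 adults. The part of this in the zeros was not tested. Snap25 was listed at 0 in all 4 Hap-I aged libraries on the diet, had 0.147, 0.207, 0.697 and 0.163 TPM in Hap-I adults on it and 0, 0.0697, 0 and 0 TPM in Hap-II adults on it, and reached 0.541, 1.502, 1.04 and 1.38 TPM in C57 adults. Slc17a7 was listed at 0 in all 12 libraries on the diet and in C57 libraries 1 and 3, with 0.167 and 0.709 TPM in C57 libraries 2 and 4.

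Other trace members differed in their pattern. Syt1 had at most 0.248 TPM on the diet and 0.345, 0.576, 0.399 and 0.448 TPM in C57 adults. Amph was above 0 in 1 of the 16 libraries, C57 library 2, at 0.491 TPM. Stx1a was above 0 in all 16, with 0.678 ± 0.265 TPM in Hap-I aged mice on the diet, 0.371 ± 0.164 TPM in Hap-I adults on it, 0.305 ± 0.109 TPM in Hap-II adults on it and 0.446 ± 0.111 TPM in C57 adults (SD, n = 4). Gad1 was likewise above 0 in all 16, between 0.0410 and 0.710 TPM, while Gad2 was at most 0.0509 TPM. Slc32a1 and Slc17a6 were at most 0.0213 and 0.0184 TPM.

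The C57 traces can be set against the brain-like level. As a percentage of the mean in the 8, the C57 mean of the 22 genes was between 0.0346 and 3.37, with a median of 0.0883, and 16 of the 22 lay between 0.02 and 0.2%. For the 12 measurable genes the same percentage was between 0.477 and 8.45, with a median of 3.29. The 11 neuron markers outside the synapse that were low in kidney moved in the same direction, with sums of 0.918 to 1.97, 0.290 to 1.13 and 0.285 to 1.59 TPM in Hap-I aged, Hap-I adult and Hap-II adult mice on the diet and 4.91 to 7.38 TPM in C57 adults, whose means were 0.0921 to 1.02% of the brain-like level. Summed markers of glia were also higher in each C57 library than in any on the diet for Schwann cells (8 genes), at 12.2 to 15.5, 7.78 to 11.03 and 6.68 to 10.7 TPM in the same 3 groups and 20.6 to 23.6 TPM in C57 adults. For astrocytes (9 genes) the sums were 164.3 to 661.9, 109.5 to 263.5 and 101.2 to 324 TPM in the 3 groups and 562.9 to 870.5 TPM in C57 adults, and for oligodendrocytes (10 genes) 58.2 to 134.9, 30.9 to 134.7 and 60.6 to 243.7 TPM in the 3 groups and 215.3 to 306.7 TPM in C57 adults, both with overlap. The 12 markers of sympathetic nerve and adrenal medulla summed to 33.8 to 89.8, 32.4 to 44.3 and 39.0 to 85.5 TPM in the 3 groups and 52.1 to 86.1 TPM in C57 adults. Among them Th, tyrosine hydroxylase, was listed at 0 in the 12 libraries on the diet and had 0.0402, 1.02, 0.374 and 0.0837 TPM in C57 adults. Chga, chromogranin A, was at most 0.0308 TPM on the diet and had 0.497, 1.11, 0.236 and 0.622 TPM in C57 adults. Few genes made up most of these glial and sympathetic sums. Over the 16 libraries Pmp22 (Schwann cells) averaged 11.1 TPM and Mal (oligodendrocytes) 132.1 TPM. Glul and Aldh1l1 (astrocytes) averaged 224.5 and 97.3 TPM, and Slc18a1 (sympathetic list) 52.45 TPM. The next highest were Prx at 0.621, Cnp at 4.24, Aldoc at 14.9 and Npy at 5.11 TPM, so the sums follow the former genes. Endothelial markers (8 genes) summed to at most 372.1 TPM on the diet and 375.8 to 428.5 TPM in C57 adults, also without overlap. The sums of the 14 nephron markers overlapped, at 8299 to 81310 TPM on the diet and 31890 to 51650 TPM in C57 adults. Kap averaged 44640 TPM over the 16 libraries and Umod, the next highest, 933.3 TPM, so this sum follows Kap. By limma's test 11 of the 14 were lower in Hap-I adults on the diet than in C57 adults, beside 59.7% of all genes. In Hap-II adults on the diet 7 were lower, beside 36.9%, and 0 were higher in either comparison. Medians were -2.048 and -1.491 log2 units, beside -0.801 and -0.593 over all genes. C57 titles carry the same letter as those of the 8 brain-like libraries, and those of the groups on the diet carry others. The part of nerve fibres or of that shared letter in the traces was not tested.

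**Figure D5:**
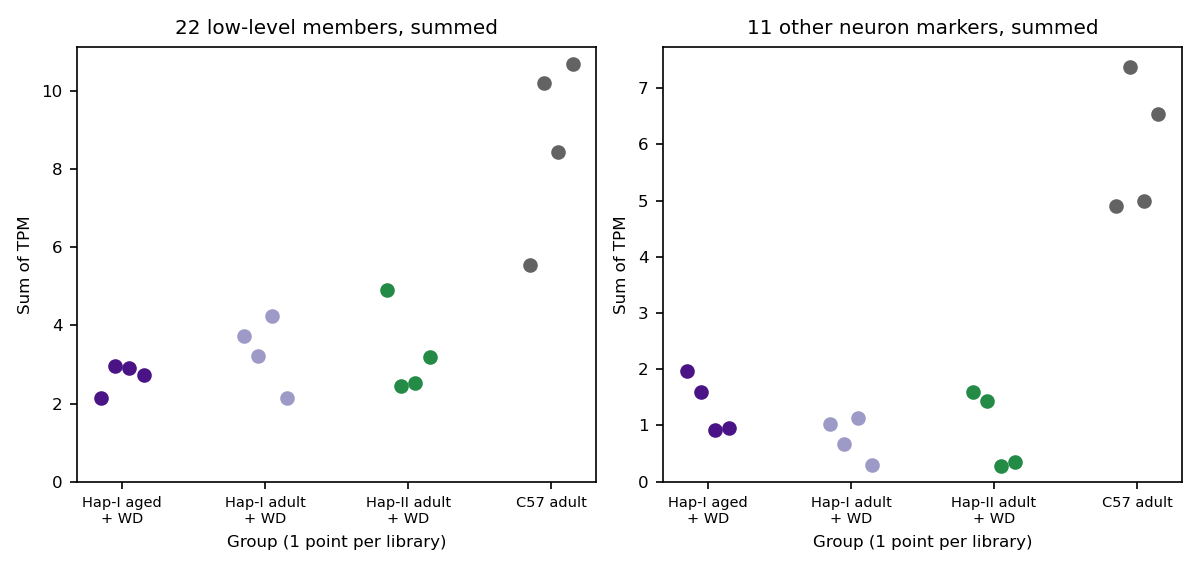
Summed TPM per library of the 22 members that stayed low in kidney (left) and of 11 other neuron markers that did so (right), in Hap-I aged mice on western diet, Hap-I adults on it, Hap-II adults on it and C57 adults. The 4 C57 libraries are highest in both panels, between 5.54 and 10.7 TPM on the left and between 4.91 and 7.38 TPM on the right.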

How the data were processed

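All values come from TPM, the length-scaled transcript abundance the authors deposited for each gene in each library. Per the submitters' processing notes kallisto and DESeq2 were used with GRCm38. What each tool did, in which version, and how transcripts were summed to genes, was not given in the sources used here. Stranded poly(A) libraries were made per the labels. TPM keep no read depth, so counting error and detection limits are unknown. The deposited TPM summed to 904693 to 944019 per library. A value of 0 is called listed at 0. Identifiers were matched to symbols in GENCODE M21 (29732 of 30153). Library numbers come from the titles in the groups on western diet and from the order of listing elsewhere.

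Moderated tests of limma 3.58.1 (R 4.3.3) with a mean-variance trend were run on log2(TPM + 1), which understates changes of low genes, for genes at 1 TPM or more in at least 4 of the fitted libraries, two-sided, with Benjamini-Hochberg adjustment over all genes and a threshold of 0.05. The 8 brain-like libraries and the 16 kidney libraries were fitted apart. The code was checked on simulated data. A few results on genes outside the 34 are not reported here. The members and lists were chosen with earlier results of these data known. Values by library were given for the core fusion genes, the transmitter genes and the genes measurable in kidney. Alternatives were a pseudocount of 0.1, other filters (none, and 5 TPM), median-of-ratios and quantile scaling, removal of mitochondrial genes, all 24 libraries, array weights, each library left out and, on western diet, the compared groups alone with and without a replicate block. A term for a Y-linked sum under 5 TPM and a filter on the 12 libraries on the diet were added after seeing the data.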

Additional observations from a re-analysis of the deposited data

Results flagged for a closer look

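Of 116 sets of 4 values examined (members at 1 TPM or more, by group), 12 held a library far from the other 3 by Dixon's ratio at the 95% level. For a single set chance alone gives about 1 in 20. The sets share libraries and are not independent, so no excess over chance is read from the count.

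In the 8 brain-like libraries, Stx1a stood at 69.3 TPM in Hap-I adult library 2, with the other 3 adult libraries between 113 and 120 TPM, and Bsn at 92.5 TPM in adult library 4, with the others between 69.5 and 70.6 TPM. Adult library 4 is the one with striatal transcripts.

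In kidney, C57 library 1 was apart in 5 sets, low each time. It had 2.35 TPM of Vamp1 (the others 4.41 to 4.68), 3.69 of Cplx2 (5.90 to 6.04), 10.9 of Nsf (22.1 to 23.4), 8.87 of Sh3gl2 (11.3 to 11.7) and 4.32 of Synj1 (9.29 to 9.53).

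Among Hap-I aged mice on western diet, library 2 was high for Rab3a, at 8.60 TPM (the others 3.99 to 4.19), and for Dnm1, at 2.38 TPM (0.576 to 0.721). Library 1 of that group was low for Cplx2, at 2.67 TPM (4.35 to 4.57), and library 3 high for Synj1, at 7.45 TPM (2.84 to 3.29). In Hap-I adults on the diet, library 1 was high for Dnm1, at 1.19 TPM (0.239 to 0.383).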

How the results depend on the processing

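With 4 libraries a group and no depth, small changes cannot be resolved, and values under 1 TPM are unreliable. The number of members called with age without the diet, with age on the diet and by haplotype was 0 under every alternative tried, each library left out included.

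Against C57 adults the count for Hap-I adults on the diet (10) was 21 without a low filter, 6 after median-of-ratios rescaling, 6 after quantile normalization, 16 with all 24 libraries and 4 with the Y-linked level as a term, and 9 to 10 with single libraries left out. For Hap-II adults on the diet (9) it was 17, 4, 5, 15 and 6 in the same order, and 4 to 9 with single libraries left out. Without a low filter the added genes are at trace level.

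Log2 changes turned sign in some cases. With age Snap25 was -0.003 after median-of-ratios rescaling, and Slc32a1 ran from -0.158 to 0.129 with single libraries left out (above 0 without aged library 1 or 2 or adult library 1 or 4). For Hap-I against C57, median-of-ratios rescaling gave 0.514 for Syngr1, 0.449 for Vamp1 and 0.012 for Sh3gl2, and quantile normalization 0.422, 0.571 and 0.062, with 0.033 for Synj1 and 0.045 for Cplx2. For Hap-II against C57, Syngr1 was 0.642 and 0.562 and Vamp1 0.313 and 0.408 under these scalings. Dnm1 was 0.019 after quantile normalization, Syngr1 0.075 with mitochondrial genes removed, 0.216 with the Y-linked term and -0.218 to 0.145 with single libraries left out (above 0 without Hap-II library 3 or 4 or C57 library 4). Both scalings set the bulk of genes level by construction.

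Counts over all genes moved more. They were 4 with age without the diet (1 to 65 under the alternatives), 4 with age on the diet (2 to 2199, the highest with array weights), 10 by haplotype (4 to 51), 8009 for Hap-I against C57 (3021 to 10994) and 5127 for Hap-II against C57 (1803 to 9706). Same-numbered libraries did not all deviate together (correlations -0.045 to 0.525), so the numbers were not taken to pair animals. A replicate block called 0 members in both comparisons, and 30 genes for age on the diet and 17 by haplotype, and 5 of 8 libraries correlated best with their own number in either pair of groups.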
